A study of Mus musculus with 2 samples.

Results

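Pulmonary surfactant is the lipid and protein film that keeps alveoli open. It is made by alveolar type 2 (AT2) cells, which store it in lamellar bodies and secrete it into the airspace. The 9 genes described here cover that route. Sftpa1 and Sftpd encode the collectins SP-A and SP-D, Sftpb and Sftpc the hydrophobic proteins of the film, and Napsa an aspartic protease that takes part in processing SP-B. Abca3 encodes the lipid transporter of the lamellar body membrane, Lamp3 a membrane glycoprotein of the same organelle, Lpcat1 an acyltransferase that makes the main surfactant phospholipid, and Slc34a2 the sodium-phosphate cotransporter of AT2 cells. The genes were chosen by symbol, and all 9 were found among the 27998 genes of the matrices.

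Single-cell RNA-seq had been carried out on lungs of C57BL/6J mice aged 10 to 12 weeks used to model hereditary hemorrhagic telangiectasia 2, in which vessels are malformed. There was 1 library labelled KO and 1 labelled WT, from cells sorted for VE-cadherin, a junction protein of endothelium, and against the leukocyte protein CD45. The labels name no deleted gene, Cre driver or number of animals. Human ACVRL1 is the gene of this disease, and its mouse counterpart Acvrl1 stood at 1049.96 CPM (UMIs per 1000000 UMIs of a class) in KO endothelial-like cells and 1469.8 CPM in WT endothelial-like cells, a ratio of 0.714. Within classes it had ratios of 0.933 in general capillary (gCap)-like cells, 0.914 in aerocyte (aCap)-like cells and 1.06 in unnamed endothelial cluster 2. Endothelial cluster 8, with 120 KO cells and 2 WT cells, had 411 CPM in KO. A 3' tag can lie outside a deleted part, so this level does not check the labels.

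The KO library held 17864581 UMIs in 2196 barcodes and the WT library 25667220 UMIs in 3482 barcodes. After filtering, 1309 KO cells with a median of 8694 UMIs and 2727 WT cells with a median of 5434 UMIs were kept. The libraries shared 12 barcodes, of which 6 belonged to kept cells. Of the kept cells, 760 KO cells and 9 WT cells carried UMIs of Y-linked genes without Xist, and 200 KO cells and 2397 WT cells carried Xist alone. With 1 library a group, no difference has a replicate check and none was tested. All intervals are exact 95% intervals that cover counting error only.

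The surfactant genes did not enter the clustering, so the classes were set by other genes. Clusters 1 and 3 were named AT2-like from 13 markers, among them Lyz2, Cxcl15, S100g and Nkx2-1. They held 405 KO cells (30.9% of kept cells, median 19690 UMIs) and 680 WT cells (24.9%, median 17710.5 UMIs), although the labels call both samples lung endothelial cells. All 13 markers reached 10 CPM in both libraries, with summed levels of 44929.9 CPM in KO and 49352 CPM in WT. These markers set the name, so their levels do not check it. In endothelial-like cells 9 of the 13 in KO and 12 in WT also reached 10 CPM, with sums of 598 CPM in KO and 1339 CPM in WT. The 12 endothelial markers summed to 130 CPM in KO and 226 CPM in WT AT2-like cells. In endothelial-like cells the same 12 markers summed to 18360 CPM in KO and 18616 CPM in WT. Among 9 leukocyte markers none reached 10 CPM in AT2-like cells of either library.

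The surfactant genes made up close to 25% of the RNA of AT2-like cells in both libraries. Their summed level was 247554 CPM in KO cells and 245089 CPM in WT cells, a ratio of 1.01. Sftpc alone carried 79.0% of these UMIs in KO and 77.5% in WT, and it was the most abundant of all genes in AT2-like cells of both libraries. On the CPM scale the order of the 9 genes was the same in both libraries, and no neighbours in it had overlapping intervals. UMIs were counted from transcript 3' ends and are not divided by transcript length. Napsa, Slc34a2 and Abca3 overlap genes on the other strand (Gm15396, Gm17182, and Gm25618 with D330041H03Rik). The strand setting of the counting is not stated by the labels.

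Of the proteins of the film, Sftpc stood at 195478 CPM in KO and 189825 CPM in WT AT2-like cells. Sftpb, without which the film and mature lamellar bodies do not form, was at 11217 CPM in KO and 11216 CPM in WT. Sftpc had a ratio of 1.03 (interval 1.028 to 1.032) and Sftpb one of 1.00 (interval 0.992 to 1.01). By cluster the Sftpc ratio was 1.07 in cluster 1 and 1.00 in cluster 3. The protease gene Napsa was at 2450 CPM in KO and 2345 CPM in WT, a ratio of 1.04 (interval 1.03 to 1.06).

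The collectin gene Sftpa1 was at 23183 CPM in KO and 25677 CPM in WT AT2-like cells, a ratio of 0.903 (interval 0.898 to 0.908). Sftpd, which lies near Sftpa1 on chromosome 14 on the other strand, was at 5203 CPM in KO and 5167 CPM in WT, a ratio of 1.01. The interval of the Sftpd ratio, 0.994 to 1.02, does not reach that of Sftpa1.

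Among the lamellar body genes, Abca3 was at 1112 CPM in KO and 1142 CPM in WT AT2-like cells, a ratio of 0.974. Lamp3 was at 1544 CPM in KO and 1718 CPM in WT, a ratio of 0.899 (interval 0.879 to 0.919). Lpcat1 was at 1292 CPM in KO and 1557 CPM in WT, a ratio of 0.830 (interval 0.810 to 0.850), the farthest from 1 of the 9 genes. The transporter gene Slc34a2 was at 6074 CPM in KO and 6442 CPM in WT, a ratio of 0.943.

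A gene was called higher or lower where the libraries differed at least 1.5-fold with intervals that did not overlap. By this size rule 0 of the 9 genes were called in AT2-like cells. Of the 7307 genes that averaged 10 CPM or more over the libraries in these cells, 1.52% were called higher and 2.35% lower. The median log2 ratio of KO over WT was -0.04 for the 9 genes and -0.01 for all genes. The same held in each AT2-like cluster, with 0 of 9 called in cluster 1 (backgrounds 1.58% higher and 2.57% lower) and in cluster 3 (1.56% and 1.85%). Lpcat1 had a ratio of 0.822 in cluster 1 and 0.845 in cluster 3.

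**Figure D1:**
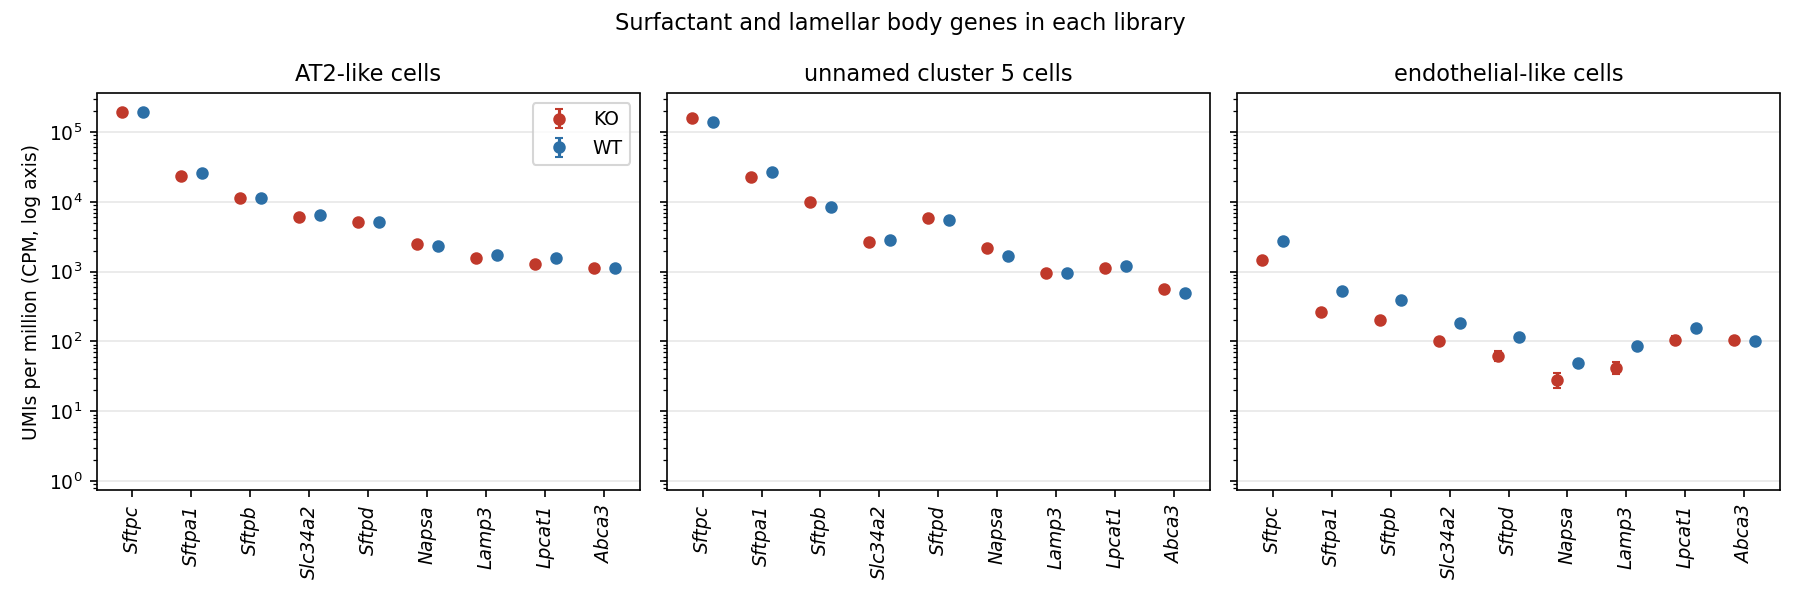
Level of each gene in CPM (log axis) in AT2-like cells, unnamed cluster 5 and endothelial-like cells, with KO and WT side by side and bars for the 95% Poisson interval. KO and WT points nearly coincide in AT2-like cells, from Sftpc at 195478 and 189825 CPM down to Abca3 at 1112 and 1142 CPM, while in endothelial-like cells the KO points lie below WT except for Abca3.

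Most AT2-like cells of the KO library were typed by Y-linked genes and nearly all of the WT library by Xist, so sex and label cannot be told apart in the pooled values. Only 37 KO AT2-like cells had Xist alone, against 635 WT cells. Within these cells Sftpc was at 209065 CPM in KO and 189860 CPM in WT, a ratio of 1.10. Lamp3 was at 1110 CPM in KO and 1714 CPM in WT, a ratio of 0.647, and was the 1 gene of 9 called lower (background 6.44%, with 2.75% called higher). Napsa was at 3420 CPM in KO and 2342 CPM in WT, a ratio of 1.46 that did not pass the size rule. Cluster 1 held 28 of the 37 KO and 284 of the 635 WT cells with Xist alone. Lamp3 was lower in cluster 1 than in cluster 3 in both libraries, and the part of this makeup in its ratio was not tested. In the 307 Y-typed KO cells, set against the same WT cells, the Lamp3 ratio was 0.933 and the Napsa ratio 0.998.

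The spread between cells was narrowest for the film proteins Sftpc and Sftpb and widest for Sftpd. The 9 genes took a median of 24.6% of a cell's UMIs in KO and 24.8% in WT, with the 10th to 90th percentile from 19.4% to 28.8% in KO and 19.4% to 28.4% in WT. Sftpc varied least, by 1.58 times between these percentiles in KO and 1.60 times in WT. Sftpd varied most, by 3.12 times in KO and 2.98 times in WT, and Sftpa1 by 2.77 times in KO and 2.31 times in WT. Lamp3 varied by 2.66 times in KO and 2.50 times in WT, and Abca3 by 2.56 times in KO and 2.34 times in WT. Both were above Sftpa1 in WT. Counting error widens this ratio for genes with few UMIs, such as Abca3 with a mean of 21.2 a cell in KO, against 3720 for Sftpc. In 3 KO cells and 1 WT cell called AT2-like the 9 genes held under 5% of UMIs.

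**Figure D2:**
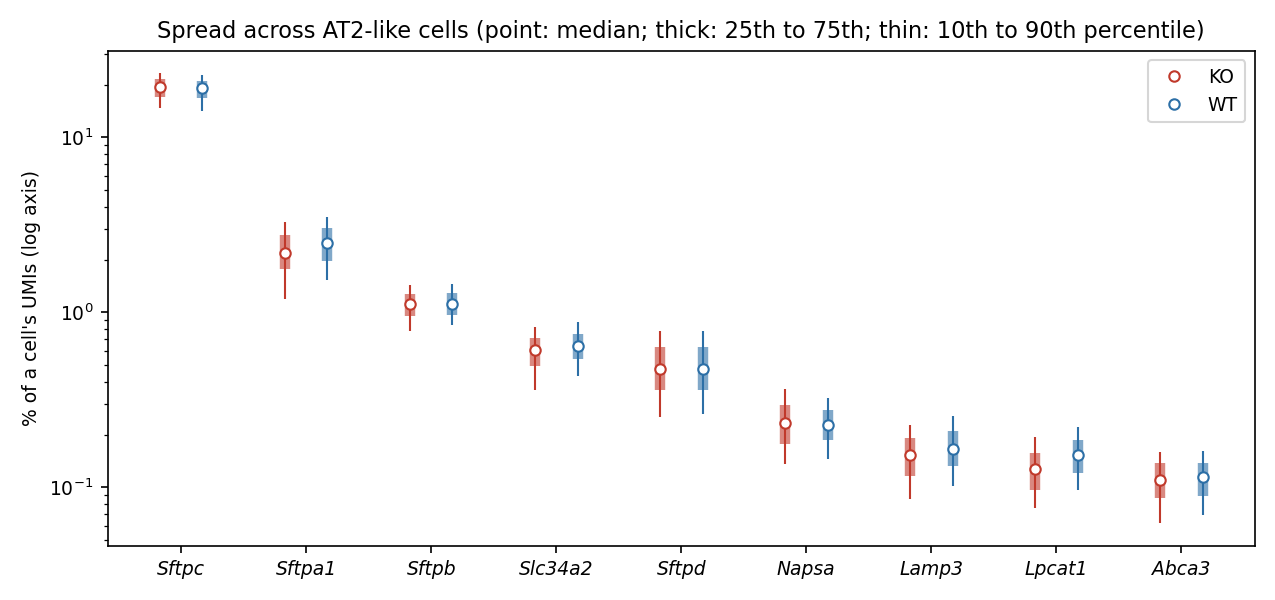
Percentage of a cell's UMIs taken by each gene (log axis) across 405 KO and 680 WT AT2-like cells, with the median as a point, a thick bar from the 25th to the 75th and a thin bar from the 10th to the 90th percentile. The bars of KO and WT overlap for each gene, with the Sftpd median at 0.473% in KO and 0.474% in WT.

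Across AT2-like cells the genes were linked to each other to different degrees. These values describe cells that share a library, and each gene was scaled to the UMIs of genes other than the 9. The collectin pair Sftpa1 and Sftpd had a Spearman rho of 0.533 over 405 KO cells and 0.524 over 680 WT cells, the highest of the 36 gene pairs in both libraries. Napsa and Sftpc had a rho of 0.432 in KO and 0.408 in WT. Sftpa1 and Sftpc had a rho of 0.412 in KO and 0.352 in WT, and Sftpa1 and Napsa one of 0.334 in KO and 0.324 in WT. Sftpb had a rho with Sftpc of 0.345 in KO and 0.310 in WT, with Lamp3 of 0.293 in KO and 0.263 in WT, and with Slc34a2 of 0.246 in KO and 0.284 in WT. Of the membrane protein genes Lamp3, Slc34a2 and Abca3, Slc34a2 and Abca3 had a rho of 0.409 in KO and 0.279 in WT, and Lamp3 and Slc34a2 one of 0.307 in KO and 0.317 in WT. Between the collectins and these 3 membrane protein genes rho lay between -0.06 and 0.08 in KO and between -0.12 and -0.06 in WT. Pearson correlations were higher, above all in KO, and fell when the cells with under 5% surfactant UMIs were left out, for Sftpa1 and Slc34a2 to 0.221, against 0.536 with them, in KO.

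The genes most like the summed 9 genes across AT2-like cells were Sfta2, Ppib, Wfdc2, Ppp1r14c and Npc2, ranked by the lower of the 2 libraries' Pearson r among 2251 genes with at least 50 CPM. Sfta2 had an r of 0.538 in KO and 0.490 in WT. Ppib, a prolyl isomerase of the endoplasmic reticulum, had 0.527 in KO and 0.445 in WT. Wfdc2 had 0.659 in KO and 0.440 in WT, and Ppp1r14c had 0.575 in KO and 0.429 in WT. Npc2, a cholesterol carrier of lysosomes and lamellar bodies, had 0.576 in KO and 0.419 in WT. This ranking rests in part on the 4 cells with under 5% surfactant UMIs. Without them Ppib came first, with the lower r at 0.523, followed by Sfta2 at 0.450, Tmsb4x at 0.415, Wfdc2 at 0.413 and Rpl10 at 0.411. Ppp1r14c was then at rank 7 and Npc2 at rank 61. Levels of Sfta2, Ppib, Wfdc2, Ppp1r14c and Npc2 in AT2-like cells lay between 558 and 4559 CPM in KO and between 511 and 5342 CPM in WT.

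Surfactant genes are textbook targets of NKX2-1, a homeodomain transcription factor of lung epithelium that binds a CAAG core. Nkx2-1 itself was at 318 CPM in KO and 329 CPM in WT AT2-like cells. RefSeq promoters on GRCm38.p6, from 250 bases before to 50 bases after a gene's start, were at hand for 6 of the 9 genes. For 5 of them this start lay within 73 bases of the gene's start in GENCODE M21, but that of Slc34a2 lay 11272 bases inside the gene, so its window is not that of the outermost start. CAAG was searched on both strands, where the other strand reads CTTG. It had 7 matches in the Sftpa1 promoter, 4 in Sftpb, 3 in Lamp3, 2 in Abca3 and none in Slc34a2 or Lpcat1. Of 32851 mouse promoters of this length 90.6% held at least 1 match, 71.2% at least 2 and 47.6% at least 3. At least 4 were held by 27.1% and at least 7 by 2.26%. The longer TCAAG, which contains CAAG, had 2 matches each in Sftpa1 and Sftpb, and 10.8% of promoters held at least 2. It had none in Lamp3, Slc34a2, Abca3 or Lpcat1, and 40.7% of promoters held at least 1. The promoters with the most matches and 1 with none are shown 5' to 3' on the gene's strand with matches in capitals: Sftpa1 at chr14:41131538-41131837 (plus strand), Sftpb at chr6:72304360-72304659 (plus strand) and Lpcat1 at chr13:73466981-73467280 (plus strand).
Sftpa1: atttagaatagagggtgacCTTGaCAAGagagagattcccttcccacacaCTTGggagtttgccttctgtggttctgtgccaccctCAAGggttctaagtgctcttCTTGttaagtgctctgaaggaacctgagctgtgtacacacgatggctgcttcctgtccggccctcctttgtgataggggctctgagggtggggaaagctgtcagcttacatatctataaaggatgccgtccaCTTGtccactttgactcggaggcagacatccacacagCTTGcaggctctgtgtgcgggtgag
Sftpb: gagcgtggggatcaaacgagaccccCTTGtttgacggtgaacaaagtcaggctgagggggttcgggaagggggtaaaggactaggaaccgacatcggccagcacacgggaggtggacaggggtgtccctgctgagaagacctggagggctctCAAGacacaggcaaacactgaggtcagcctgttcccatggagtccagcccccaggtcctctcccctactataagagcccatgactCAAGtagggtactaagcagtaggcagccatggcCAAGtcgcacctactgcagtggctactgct
Lpcat1: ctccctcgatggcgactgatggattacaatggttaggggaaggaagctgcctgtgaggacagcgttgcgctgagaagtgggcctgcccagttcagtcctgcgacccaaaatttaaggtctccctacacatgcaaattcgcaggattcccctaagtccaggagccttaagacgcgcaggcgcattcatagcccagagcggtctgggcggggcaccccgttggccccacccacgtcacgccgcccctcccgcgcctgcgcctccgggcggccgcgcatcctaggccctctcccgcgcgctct
These are matches of letters only, and no binding was measured in these libraries.

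Genes around the 9 in the surfactant pathway were counted by the same rule in AT2-like cells, where 1.52% of all genes were called higher and 2.35% lower. Of 17 genes of surfactant protein folding and processing, 1 was called higher and 0 lower. It was Ctsh, a cathepsin that cleaves SP-B and SP-C precursors, at 2594 CPM in KO and 1640 CPM in WT, a ratio of 1.58. By cluster, Ctsh was called higher in cluster 1, at 3027 CPM in KO and 1945 CPM in WT. In cluster 3 no gene of this list was called. Of 14 measured genes of lamellar body formation, which include trafficking genes of the Hermansky-Pudlak complexes, and of 12 genes of surfactant release and pool size, 0 were called. The release list includes Adgrf5, a receptor that limits the surfactant pool, at 315 CPM in KO and 360 CPM in WT.

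Of 19 genes of surfactant phospholipid synthesis, 0 were called higher and 2 lower, beside 1.52% higher and 2.35% lower over all genes. Pcyt2, of phosphatidylethanolamine synthesis, was at 39.8 CPM in KO and 61.4 CPM in WT, a ratio of 0.649. Lpin1, a phosphatidate phosphatase, was at 11.0 CPM in KO and 22.5 CPM in WT, a ratio of 0.490. Within the AT2-like clusters, Lpin1 was called lower in both and Pcyt2 in cluster 3 alone. Pcyt1a, the rate-limiting enzyme of phosphatidylcholine synthesis, was at 51.0 CPM in KO and 50.1 CPM in WT. Of 16 AT2 transcription factors 0 were called.

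Among 15 other AT2 identity genes, 0 were called higher and 3 lower, beside 1.52% and 2.35% over all genes. Cd74, the invariant chain of MHC class II, was at 1545 CPM in KO and 2814 CPM in WT, a ratio of 0.549. Scd1, a fatty acid desaturase, was at 2175 CPM in KO and 3409.6 CPM in WT, a ratio of 0.638. Lyz1 had a ratio of 0.653, a value that is uncertain because it shares sequence with Lyz2. Lyz2 was at 24777 CPM in KO and 25057 CPM in WT. Within the AT2-like clusters, Cd74 was called lower in both, Lyz1 in cluster 1 alone and Scd1 in cluster 3 alone. In unnamed cluster 5, Lyz1 was called higher, at 3648 CPM in KO and 1662 CPM in WT.

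Of 12 genes of AT1 and transitional epithelium, 5 were called higher and 0 lower in AT2-like cells, beside 1.52% and 2.35% over all genes. Areg, an EGF receptor ligand, was at 69.3 CPM in KO and 27.8 CPM in WT, a ratio of 2.49. Sfn, a 14-3-3 protein of epithelia, was at 34.9 CPM in KO and 15.3 CPM in WT, a ratio of 2.28. Krt19, a keratin, had a ratio of 1.76 and the galectin gene Lgals3 one of 1.65. Cdkn1a, a cell cycle inhibitor, had a ratio of 1.51. The AT1 markers measured in this list were not called, with ratios of 1.40 for Ager, 1.21 for Aqp5 and 1.23 for Hopx. The median log2 ratio of this list was 0.50, against -0.01 for all genes. Cluster 1, which has the AT1 marker Ager among its leading genes, made up 61.0% of AT2-like cells in KO and 45% in WT, so the pooled class differs in its makeup. Within cluster 1 the median of the list was 0.47 and 3 of 12 genes were called higher (Areg, Sfn and Krt19). Within cluster 3 it was 0.33 and 2 of 12 were called higher (Areg and Lgals3). Medians over all genes were -0.02 in cluster 1 and 0.01 in cluster 3. The medians of the other 6 lists lay between -0.08 for the transcription factors and 0.11 for phospholipid synthesis.

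A further epithelial cluster, number 5, kept no name because AT1 markers (Aqp5, Ager) outnumbered AT2 markers among its leading genes. It held 146 KO cells and 119 WT cells, 11.2% and 4.36% of those kept. All 13 AT2 markers and 7 of 10 AT1 markers reached 10 CPM in it in both libraries. The summed surfactant level was 205613 CPM in KO and 184286 CPM in WT, which is 83.1% of the AT2-like level in KO and 75.2% in WT.

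The 9 genes did not stand in one proportion to AT2-like cells in this cluster. Sftpd was at 114% of its AT2-like level in KO and 105% in WT, and Sftpa1 at 96.8% in KO and 103% in WT. Abca3 was at 50.1% in KO and 43.9% in WT, Slc34a2 at 44.4% in KO and 43.8% in WT, and Lamp3 at 61.0% in KO and 56.3% in WT. Lpcat1 was at 86.5% in KO and 77.4% in WT. The collectins were thus near their AT2-like level and Abca3, Slc34a2 and Lamp3 well under it, in both libraries. Sftpc, Sftpb and Napsa were also under their AT2-like levels in both libraries. In cluster 5 Sftpc was at 159723 CPM in KO and 136731 CPM in WT, and Sftpb at 10037 CPM in KO and 8538 CPM in WT.

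Between the libraries, 0 of the 9 genes were called in cluster 5, where 2.39% of genes were called higher and 3.01% lower. Napsa was at 2179.9 CPM in KO and 1647 CPM in WT, a ratio of 1.32, and Sftpa1 at 22433 CPM in KO and 26468 CPM in WT, a ratio of 0.848. With Xist-only cells alone, 46 KO cells against 113 WT cells, the Napsa ratio was 1.45 and the Sftpa1 ratio 0.743.

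Outside the epithelium the surfactant genes served as a measure of free RNA, which enters droplets of cells that do not express a gene. Endothelial-like cells, 479 KO and 1499 WT, had a summed level of 2390 CPM in KO and 4398 CPM in WT, a ratio of 0.543 (interval 0.529 to 0.558). Sftpc was at 1476 CPM in KO and 2784 CPM in WT and Sftpa1 at 267 CPM in KO and 528 CPM in WT. By the size rule 7 of the 9 genes were lower, where 5.04% of 8625 genes were lower and 4.03% higher. The median log2 ratio was -0.91 for the 9 genes and -0.05 for all genes.

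The exceptions were Abca3 and Lpcat1. Abca3 was at 104 CPM in KO and 103 CPM in WT endothelial-like cells, a ratio of 1.00 (interval 0.869 to 1.16). Of its 272 KO UMIs, 90 were in endothelial cluster 8, which holds almost only KO cells. By class the Abca3 ratio was 0.947 in gCap-like cells, 1.15 in aCap-like cells and 0.767 in endothelial cluster 2 (interval 0.506 to 1.13). Lpcat1 was at 106 CPM in KO and 158 CPM in WT, a ratio of 0.669 (interval 0.585 to 0.765), whose own interval does not reach 1. The intervals of the 7 lower genes all ended under that of Abca3, the highest of them at 0.731 for Napsa.

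The 3 endothelial classes with at least 50 cells a library had the same direction. In gCap-like cells, 156 KO and 520 WT, 6 of 9 genes were lower (background 2.28%), with Sftpc at 1419 CPM in KO and 2857 CPM in WT. In aCap-like cells, 69 KO and 408 WT, 5 were lower (background 1.90%), with Sftpc at 1119 CPM in KO and 2327 CPM in WT. In unnamed endothelial cluster 2, 93 KO and 446 WT cells, 5 were lower (background 2.19%), with Sftpc at 2161 CPM in KO and 3632 CPM in WT. No gene of the 9 was higher in these classes (backgrounds 1.51%, 1.81% and 2.03%), and Abca3 and Lpcat1 were called in none of them. Of the smaller classes, arterial-like cells, 20 KO and 66 WT, had a summed level of 1810 CPM in KO and 3912 CPM in WT. Venous-like cells, 14 KO and 54 WT, had 2224 CPM in KO and 2872 CPM in WT, a ratio of 0.774 that did not pass the size rule.

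Fibroblast-like and smooth muscle-like cells had the same direction. In fibroblast-like cells, 86 KO and 128 WT, the summed level was 1260 CPM in KO and 2381 CPM in WT, and 7 of 9 genes were lower (background 6.33%). In smooth muscle-like cells, 54 KO and 82 WT, it was 1231 CPM in KO and 2845 CPM in WT, and 5 were lower (background 3.94%). No gene was higher in either class (backgrounds 3.30% and 2.15%). The median of all genes was itself below 0 on the log2 scale in these classes, at -0.13 and -0.14, against -0.92 and -0.85 for the 9 genes.

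**Figure D3:**
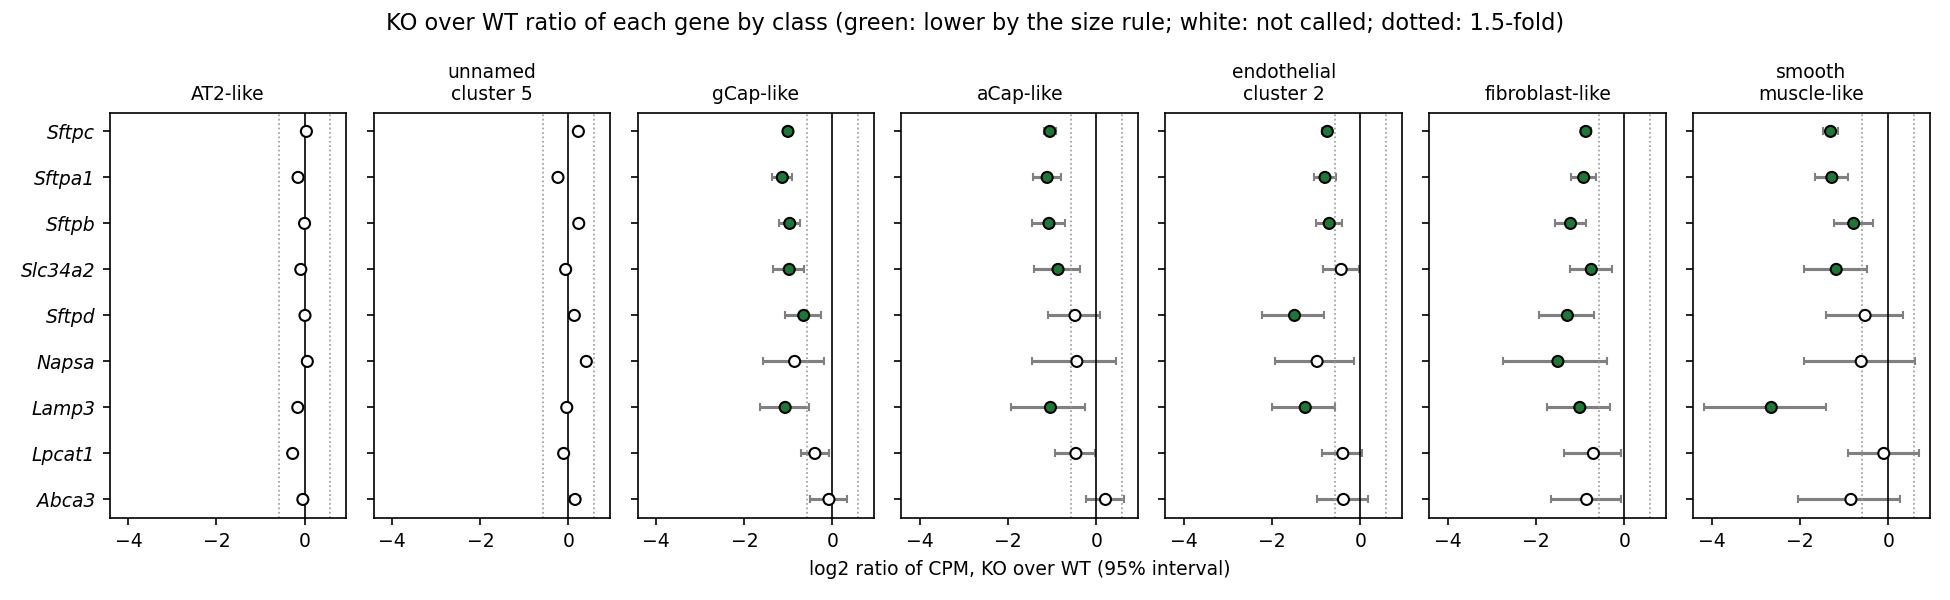
Log2 ratio of KO over WT for each of the 9 genes in 7 classes, with 95% intervals, dotted lines at 1.5-fold and green points for genes called lower. Points lie near 0 in AT2-like cells and cluster 5 and mostly left of the dotted line elsewhere. Abca3 lies at -0.08 in gCap-like cells, 0.21 in aCap-like cells and -0.38 in endothelial cluster 2.

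In endothelial-like cells the KO level was lower whether KO cells with Xist alone or Y-typed KO cells were set against WT cells with Xist alone. KO cells with Xist alone, 74 against 1378 WT cells, had 2459 CPM in KO and 4328 CPM in WT, a ratio of 0.568, and 6 of 9 genes were lower (background 9.86%). Of these KO cells 56 were of endothelial cluster 8, 8 were aCap-like and 0 gCap-like. The WT cells held 480 gCap-like, 394 aCap-like and 2 cluster 8 cells, so this comparison differs in endothelial class as well. Y-typed KO cells, 265 of them, had 2322 CPM, a ratio of 0.536 to the same WT cells, and 7 of 9 genes were lower (background 3.56%). Abca3 had a ratio of 1.16 in the Xist-only and 0.975 in the Y-typed comparison. Lpcat1 had ratios of 0.511 and 0.718, and the first passed the size rule.

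Counted per cell rather than as CPM, surfactant UMIs were nearly constant outside the epithelium. The median was 12 UMIs a cell in KO and 19 in WT endothelial-like cells. It was 13 in KO and 21 in WT fibroblast-like cells, and 12 in KO and 20 in WT smooth muscle-like cells. Venous-like cells ran the other way, with 21 in KO and 18.5 in WT. Depth differed far more between these classes than this number did: medians of all UMIs were 5349 in KO and 4292 in WT endothelial-like cells but 11342.5 in KO and 9781.5 in WT fibroblast-like cells. AT2-like cells had medians of 4837 surfactant UMIs in KO and 4332 in WT.

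**Figure D4:**
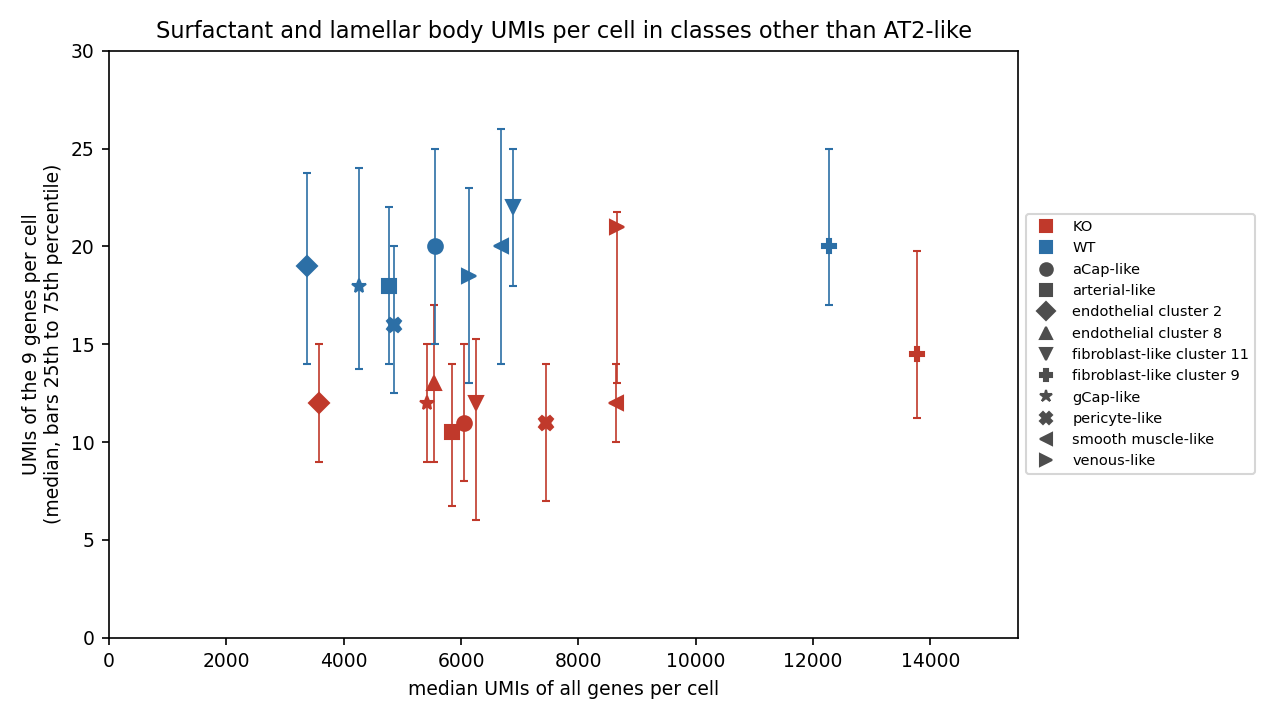
Median UMIs of the 9 genes per cell against the median of all UMIs per cell in classes of at least 10 cells outside the epithelium, with bars from the 25th to the 75th percentile. KO classes lie between 10.5 and 14.5 UMIs, apart from 14 venous-like cells at 21, and WT classes between 16 and 22, at class depths from 3379 to 13780 UMIs.

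The libraries differed in the source of this RNA as well. AT2-like and cluster 5 cells together held 99.4% of the surfactant UMIs of kept KO cells and 98.3% of those of kept WT cells, and the 9 genes made up 16.5% of all UMIs kept in KO and 14.5% in WT. More KO than WT barcodes exceeded the mitochondrial limit, 30.5% in KO and 15.1% in WT. The part of these differences in the lower KO levels outside the epithelium was not tested.

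Free RNA from 1 source keeps its genes in 1 ratio in every class, so each level was set against the AT2-like level of its library. The percentage is alike for all genes only if that RNA has the AT2-like mix, which was not tested. In endothelial-like cells this percentage ranged from 0.755% for Sftpc to 2.74% for Lamp3 in KO, and from 1.47% for Sftpc to 5.06% for Lamp3 in WT, over 7 of the genes. The 13 AT2 markers with Cd74 and Scd1, 15 genes in all, gave 0.915% to 3.81% in KO and 1.97% to 7.77% in WT. Abca3 was at 9.31% in KO and 9.03% in WT, and Lpcat1 at 8.19% in KO and 10.1% in WT.

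Relative to AT2-like cells, Abca3 and Lpcat1 were above the other 7 genes in each of the 3 endothelial classes with at least 50 cells a library. Abca3 was at 12.1% in KO and 10.2% in WT aCap-like cells and at 7.05% in KO and 7.25% in WT gCap-like cells. Lpcat1 was at 9.96% in KO and 10.9% in WT gCap-like cells and at 11.1% in KO and 12.1% in WT cells of endothelial cluster 2. Of those 15 AT2 genes the transcription factor gene Etv5 was highest in gCap-like cells, at 4.68% in KO, under both genes, and 7.77% in WT, above Abca3 and under Lpcat1. In fibroblast-like cells Abca3 was at 1.91% in KO and 3.36% in WT and Lpcat1 at 2.51% in KO and 3.38% in WT. In smooth muscle-like cells Abca3 was at 1.79% in KO and 3.14% in WT and Lpcat1 at 3.64% in KO and 3.24% in WT. Both were thus higher on this scale in the endothelial classes than in fibroblast-like and smooth muscle-like cells. In fibroblast-like cells Etv5 stood above both, at 4.39% in KO and 5.10% in WT.

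**Figure D5:**
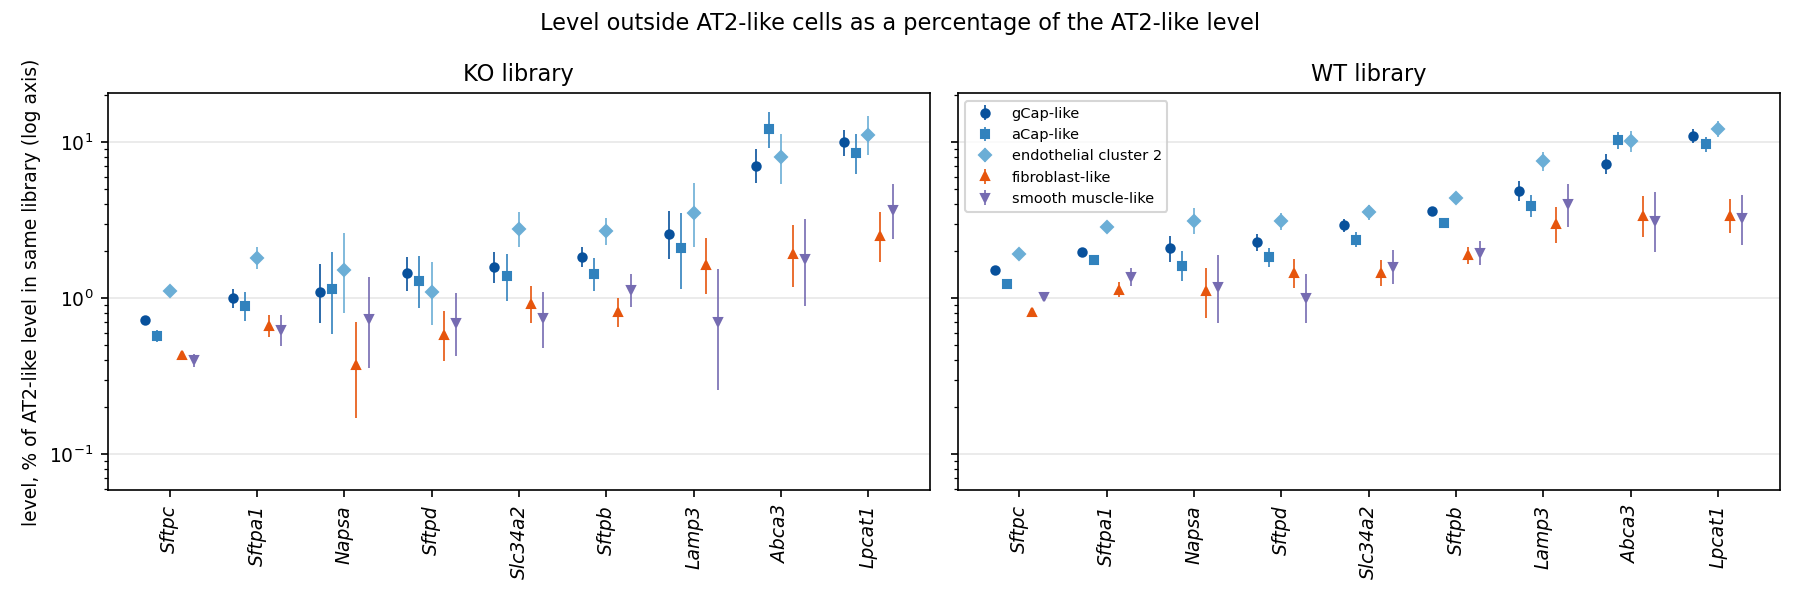
Level of each gene as a percentage of its AT2-like level in the same library (log axis), for 5 classes, with KO left and WT right and bars for the 95% interval. Abca3 and Lpcat1 lie between 7.05% and 12.1% in the 3 endothelial classes (blue), for example 9.96% in KO and 10.9% in WT for Lpcat1 in gCap-like cells, and lower in fibroblast-like and smooth muscle-like cells.

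Shares of cells were compared after thinning each cell to 1500 UMIs. Sftpc was then found in 99.5% of KO and 100% of WT AT2-like cells, but also in 85.1% of KO and 96.3% of WT endothelial-like cells, so a UMI of Sftpc does not mark an AT2 cell in these libraries. Sftpa1 was found in 37.1% of KO and 55.8% of WT endothelial-like cells and Sftpb in 24.8% of KO and 47.7% of WT. Abca3, the lowest of the 9 in AT2-like cells, was found in 81.6% of KO cells (interval 77.4% to 85.4%) and 77.5% of WT cells (74.2% to 80.6%). In endothelial-like cells Abca3 was found in 13.6% of KO and 15.8% of WT cells. In fibroblast-like cells it was found in 0 of 77 KO cells, which allows a share of up to 3.90%, and in 5.69% of WT cells. Unthinned medians were 5349 UMIs in KO and 4292 in WT endothelial-like cells, and thinning left out 15 KO and 77 WT cells of that class.

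The mix of genes outside the epithelium was shifted away from Sftpc. Sftpc made up 61.8% of the surfactant UMIs of KO and 63.3% of WT endothelial-like cells, against 79.0% in KO and 77.5% in WT AT2-like cells. Barcodes over the mitochondrial limit had an Sftpc share nearer to the endothelial-like one, at 68.4% in KO and 67.9% in WT. Their Sftpb share was 9.27% in KO and 8.11% in WT, against 4.53% in KO and 4.58% in WT AT2-like cells. Their Abca3 share was 1.02% in KO and 0.805% in WT, against 0.449% in KO and 0.466% in WT AT2-like cells. In endothelial-like cells the Abca3 share was 4.33% in KO and 2.35% in WT. The Lpcat1 share of the barcodes over the limit was 1.48% in KO and 1.58% in WT, against 0.522% in KO and 0.635% in WT AT2-like cells. In endothelial-like cells it was 4.43% in KO and 3.59% in WT. For Abca3 and Lpcat1 the shares in these barcodes were thus nearer to the AT2-like ones. The part of this mix in the Abca3 and Lpcat1 levels of endothelial-like cells was not tested.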

How the data were processed

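The authors deposited 1 matrix of raw UMI counts for the KO and 1 for the WT library (10x 3' v3). The submitters' processing notes name Cell Ranger 3.0.1 and mm10. No doublet removal before deposit is named in the sources used here. Barcodes under 500 genes or over 10% mitochondrial UMIs were removed. Scrublet, run per library through scanpy 1.11.5, removed 17 KO (1.28%) and 18 WT (0.656%) doublets. Cells were clustered without the 9 genes and sex-linked genes, on 2000 variable genes, 30 components, 20 neighbours and Leiden at resolution 1 (leidenalg 0.10.2). A second clustering left out 630 variable genes that differed between the libraries within classes, which kept 1370 and gave 20 clusters. To be named, a cluster needed 3 markers of a class, each in 10% or more of its cells and 2-fold above the median cluster (10 CPM added). Among its 10 leading genes it needed 1 own marker and no more of another class.

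For each class, UMIs of a library were added up and divided by their total (CPM). Intervals were exact Poisson intervals for levels, conditional binomial intervals for ratios and Clopper-Pearson intervals for shares (scipy 1.17.1). For a share with a count of 0 the upper limit was set at 3 counts, not by an exact interval. A level with 0 UMIs was left at 0 CPM. Shares were taken after thinning to 1500 UMIs. All 9 genes are named. Of each list, up to 4 genes with the largest ratios past the size rule are named. Single genes below it (Adgrf5, Pcyt1a, Lyz2, Nkx2-1, Ager, Aqp5, Hopx) were picked after their values were seen. So was Cdkn1a, which came after 4 others in the AT1 list. The members and lists were chosen with earlier results of these data known. The comparison was tested on simulated data. Gene coordinates came from GENCODE M21 and promoters from RefSeq. With 1 library a group, no test across libraries exists.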

Additional observations from a re-analysis of the deposited data

Results flagged for a closer look

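Sftpc and Napsa were lower in KO endothelial-like cells and nearly level between the libraries in AT2-like cells. The log2 ratio of KO over WT for Sftpc was -0.92 in endothelial-like cells and 0.04 in AT2-like cells. For Napsa it was -0.82 in endothelial-like cells and 0.06 in AT2-like cells. The signs differ between the classes, but the AT2-like values are close to 0. The difference between the classes was not tested, and neither gene passed the size rule in AT2-like cells.

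Barcodes left out for too few genes also carried surfactant RNA. Their summed level was 7301 CPM in 200 KO barcodes and 3019 CPM in 210 WT barcodes, higher in KO, whereas it was lower in KO in endothelial-like cells. Barcodes over the mitochondrial limit had 46180 CPM in KO and 48314 CPM in WT.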

How the results depend on the processing

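No paired analysis was possible because each group is 1 library, and no replicate could be left out. In AT2-like cells 0 of 9 genes were called under each alternative, except that 1 (Lamp3) was lower among cells with Xist alone. Over all genes with a UMI the background was 1.46% higher and 2.60% lower. The median log2 ratio of the 9 genes was -0.04. It moved to -0.15 with a filter of 1000 genes and 5% mitochondrial UMIs, -0.15 with doublets kept, -0.13 with cells gated on AT2 and endothelial markers in place of clusters, and -0.13 with cluster 5 joined. The last choice, the gene lists by AT2-like cluster, the removal of cells under 5% surfactant UMIs and that of the endothelial cluster almost wholly of KO cells were made after seeing the data. The log2 ratio of the summed genes in endothelial-like cells was -0.88 and stayed lower by the size rule under all 12 alternatives run. It moved to -1.28 with doublets kept (2405 CPM in KO, 5858 CPM in WT), -0.84 under the marker gate, -0.83 with median-of-ratios scaling and -0.82 with Xist-only cells. For these shifts the cause was not tested. The marker gate kept only endothelial cells with few AT2 markers detected, so it selects on free RNA itself. It kept 334 KO and 449 WT cells, against 479 KO and 1499 WT cells by clusters. Of 117 values for single genes in AT2-like cells, 52 left the counting interval of the reported value and 1 passed the size rule. The share of AT2-like cells with Abca3 depended on depth: at 5000 UMIs it was 99.2% in KO and 99.5% in WT, and without thinning 97.0% in KO and 99.4% in WT. At 1500 UMIs a share limits cells with a UMI, not cells that express a gene.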

Other observations

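Small or mixed classes held the surfactant genes unevenly. Unnamed cluster 6, 82 KO and 84 WT cells of low depth with club cell and haemoglobin genes, had a summed level of 33237 CPM in KO and 95038 CPM in WT. Unnamed cluster 10, 25 KO and 82 WT cells, had 8504 CPM in KO and 18200 CPM in WT. Among 23 WT pericyte-like cells 1 cell held 3570 surfactant UMIs, 90.4% of those of its class, and the other cells averaged 17.2 UMIs. The 21 KO pericyte-like cells averaged 11.7.

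The 2 AT2-like clusters differed within each library. Cluster 1 had Sftpd at 5713 CPM in KO and 5802 CPM in WT, and cluster 3 had 4403 CPM in KO and 4640 CPM in WT. Abca3 ran the other way, at 1018 CPM in KO and 1052 CPM in WT in cluster 1 and 1259 CPM in KO and 1216 CPM in WT in cluster 3. Lamp3 was at 1377 CPM in KO and 1539 CPM in WT in cluster 1 and 1805 CPM in KO and 1865 CPM in WT in cluster 3. The genes did not enter the clustering, and no test was made between the clusters.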
